A study of Rattus norvegicus with 15 samples.

Results

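The 10 genes described here build and cross-link the extracellular matrix of the artery wall: the fibrillar collagen chains Col1a1, Col1a2 and Col3a1, elastin (Eln), fibronectin (Fn1), the cross-linking enzyme lysyl oxidase (Lox), and the small leucine-rich proteoglycans decorin (Dcn), fibromodulin (Fmod), biglycan (Bgn) and lumican (Lum). Every probe set whose single gene symbol in the array annotation was one of these 10 was taken, which gave 26 probe sets of the 8740 on the array that are not array controls, for 10 of the 4736 genes named by a single symbol. All 10 symbols were matched to the RefSeq gene table by gene identifier. Of the 26 probe sets, 24 passed the filter on low signal, as did 6512 probe sets in all, and 2 probe sets of Fn1 did not.

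The series measured gene expression in rat mesenteric arteries and asked, per its title, about impaired growth of collateral arteries in SHR, the spontaneously hypertensive rat, which is inbred and has raised blood pressure. The reference strain, WKY, is the Wistar-Kyoto rat, its usual comparator with normal blood pressure. In each strain, arteries that had become collaterals after neighbouring arteries were occluded were set against control arteries. There were 4 arrays of SHR collateral, 4 of SHR control, 4 of WKY collateral and 3 of WKY control arteries. The labels give no age, sex, time after occlusion or animal of origin, and do not state that replicates came from separate animals, and every p-value therefore speaks only to the scatter among arrays, part of which may be technical. The labels also do not say whether a control and a collateral artery came from the same animal.

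In the artery wall, smooth muscle cells and fibroblasts secrete fibrillar collagens, which bear tension, and elastin, which gives recoil. Lysyl oxidase oxidises lysines of collagen and elastin so that their chains become cross-linked. The small leucine-rich proteoglycans bind to collagen and affect how fibrils assemble, and fibronectin links matrix to integrins on cells. An artery that widens into a collateral remodels this matrix.

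Each value is a MAS5 signal, a brightness scaled to a common mean on every array, and differences are on its log2 scale. A probe set is said to pass, or to be called, when limma's p-value adjusted over all tested probe sets is under 0.05. Levels of different probe sets are not comparable with each other.

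One array, SHR collateral 3, stood apart from the rest, and results that rest on it are given with and without it. Its rank correlation over all probe sets with the other arrays was between 0.496 and 0.657, against 0.805 to 0.931 among the other 14. The 20th percentile of signal on it was 171.2, compared with 43.4 to 83.3 elsewhere, and the mean signal of its spiked-in control transcripts was 354583, against 26654 to 130880. For actin and Gapdh, the log2 ratio of 3' over 5' probe set signal, which reflects RNA integrity and labelling, was 1.64 to 2.31 on the SHR arrays and 2.07 to 2.62 on the WKY arrays. All 11 smooth muscle markers measured, among them Acta2 and Myh11, lay above the 20th percentile of signal on at least 1 array of every group. In whole-vessel RNA, fewer cells of a type and less RNA per cell cannot be told apart.

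RefSeq start-site windows (rat build GRCr8, 250 bases before to 50 after the annotated start, 5′ to 3′) were at hand for only 3 of the 10 members, and these are shown. The source used held no window for the others, Lox among them. Fmod had the lowest mean collateral difference of the members with all 15 arrays, Lum is the proteoglycan gene next to Dcn, and Col1a2 is a fibrillar collagen chain whose signal differed little between groups. Capitals mark exact matches, on either strand, to 3 short motifs. The TATA box was searched as TATAAA. The other motifs were the CCAAT box, searched by those letters, and the GC box, searched as GGGCGG. No marked matches overlap.
Fmod: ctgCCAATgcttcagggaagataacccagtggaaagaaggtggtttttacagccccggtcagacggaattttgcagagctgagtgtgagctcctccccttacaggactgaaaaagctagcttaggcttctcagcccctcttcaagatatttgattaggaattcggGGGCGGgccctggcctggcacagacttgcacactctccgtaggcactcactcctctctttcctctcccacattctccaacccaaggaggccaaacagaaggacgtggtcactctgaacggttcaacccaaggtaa
Lum: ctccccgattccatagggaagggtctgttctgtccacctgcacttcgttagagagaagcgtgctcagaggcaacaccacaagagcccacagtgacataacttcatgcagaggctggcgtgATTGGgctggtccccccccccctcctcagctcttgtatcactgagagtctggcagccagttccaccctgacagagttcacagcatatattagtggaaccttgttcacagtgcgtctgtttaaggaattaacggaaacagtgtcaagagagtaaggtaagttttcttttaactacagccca
Col1a2: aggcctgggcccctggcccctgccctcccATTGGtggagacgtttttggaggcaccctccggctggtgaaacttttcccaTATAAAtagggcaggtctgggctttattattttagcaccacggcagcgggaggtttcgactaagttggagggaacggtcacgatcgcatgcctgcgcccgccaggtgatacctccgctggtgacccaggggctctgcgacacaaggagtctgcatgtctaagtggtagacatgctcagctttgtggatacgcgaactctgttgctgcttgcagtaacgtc
The Fmod window is chr13:48045317-48045616 on the plus strand and held CCAAT at -247 and GGGCGG at -85 from the start. The Lum window is chr7:34245456-34245755 on the plus strand and held CCAAT on the minus strand, written ATTGG, at -130. The Col1a2 window is chr4:33518307-33518606 on the plus strand and held TATAAA at -170 and CCAAT on the minus strand at -221. Of 33469 rat windows of 300 bases, 14.2% held TATAAA, 37.5% CCAAT and 33.1% GGGCGG, so each motif is common and a match is a description only. On the same build, 0 protein-coding genes lay between Dcn and Lum.

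The clearest difference among these genes was in lysyl oxidase, which was lower in SHR than in WKY arteries. The Lox probe set S66184_s_at had MAS5 signals of 28719, 37390, 9826 and 32115 in SHR collateral arteries, against 57712, 61509, 63027 and 81550 in WKY collateral arteries. In SHR control arteries its signals were 15667, 27237, 25894 and 30175, against 37423, 44965 and 46849 in WKY control arteries. All 8 SHR arrays lay below all 7 WKY arrays. Averaged over both vessel types, the log2 difference (SHR minus WKY) was -1.14 ± 0.26 (SE; 95% interval -1.68 to -0.59; 8 against 7 arrays), a 2.20-fold lower signal, with a limma adjusted p of 0.0382 over all 6512 probe sets. Without SHR collateral 3 it was -0.92 ± 0.17, a 1.89-fold lower signal, with an adjusted p of 0.00903.

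This was the 1 probe set of the 24 that passed in the mean strain comparison, in the downward direction, where 0.507% of all tested probe sets were called lower; 0 of the 24 were called higher, against 0.384%. Without SHR collateral 3, 2 of the 24 were called lower, both of them Lox, where 0.599% of all tested probe sets were. The call on S66184_s_at was not firm. It was kept in 4 of the 15 fits that left out 1 array (without SHR collateral 2, 3 or 4, or SHR control 4) and lost in the other 11, where the adjusted p reached 0.115, and the difference was lower in SHR in all 15. With the 3' to 5' ratio as a covariate, chosen after seeing the data, the difference was -0.91 with an adjusted p of 0.698. That ratio ran higher on the WKY arrays, with overlap.

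Within each vessel type the Lox difference did not pass, except in collateral arteries with array weights (-1.205, adjusted p = 0.0233). In collateral arteries S66184_s_at was at -1.44 ± 0.35 (adjusted p = 0.226), and at -1.01 ± 0.24 without SHR collateral 3. In control arteries it was at -0.84 ± 0.38 (adjusted p = 0.730). Its mean log2 signals ran, from highest to lowest, from WKY collateral through WKY control to SHR collateral and SHR control. The values were 14.56 ± 0.88 in SHR collateral, 14.55 ± 0.42 in SHR control, 16.00 ± 0.22 in WKY collateral and 15.39 ± 0.17 in WKY control arteries (SD, n = 4, 4, 4 and 3), so the 2 SHR groups did not differ beyond their spread.

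The other 3 Lox probe sets gave a mixed account. The probe set rc_AA875582_at read 593, 828, 311 and 976 in SHR collateral, 391, 433, 766 and 628 in SHR control, 1081, 1720, 1195 and 2077 in WKY collateral, and 916, 1109 and 1242 in WKY control arteries. Here too SHR and WKY did not overlap within either vessel type, and the mean strain difference was -1.13 ± 0.27 (adjusted p = 0.0616), or -0.96 ± 0.23 without SHR collateral 3 (adjusted p = 0.049952). It also passed without SHR collateral 4, at -1.24 (adjusted p = 0.0332), with array weights (0.00642) and with the 60th percentile filter (0.0422). In all it passed in 4 of its 24 alternatives, and in the others the adjusted p reached 0.746. The probe set S77494_s_at was at -0.79 ± 0.25 (adjusted p = 0.161) and overlapped in part: SHR collateral arteries read 17574, 13669, 5651 and 18189, against 28684, 20588, 17901 and 29010 in WKY collateral arteries. The fourth, rc_AI234060_s_at, was at -0.16 ± 0.25, with signals of 668 to 1753 in SHR collateral arteries and 758 to 1595 in WKY collateral arteries that overlapped fully. Both probe sets with no overlap in both vessel types, of the 24 tested, were Lox, where 0.537% of all tested probe sets were lower with no overlap in both. These probe sets target 1 gene and are not separate evidence, and probes of sets ending in _s_at can match more than 1 transcript.

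**Figure D1:**
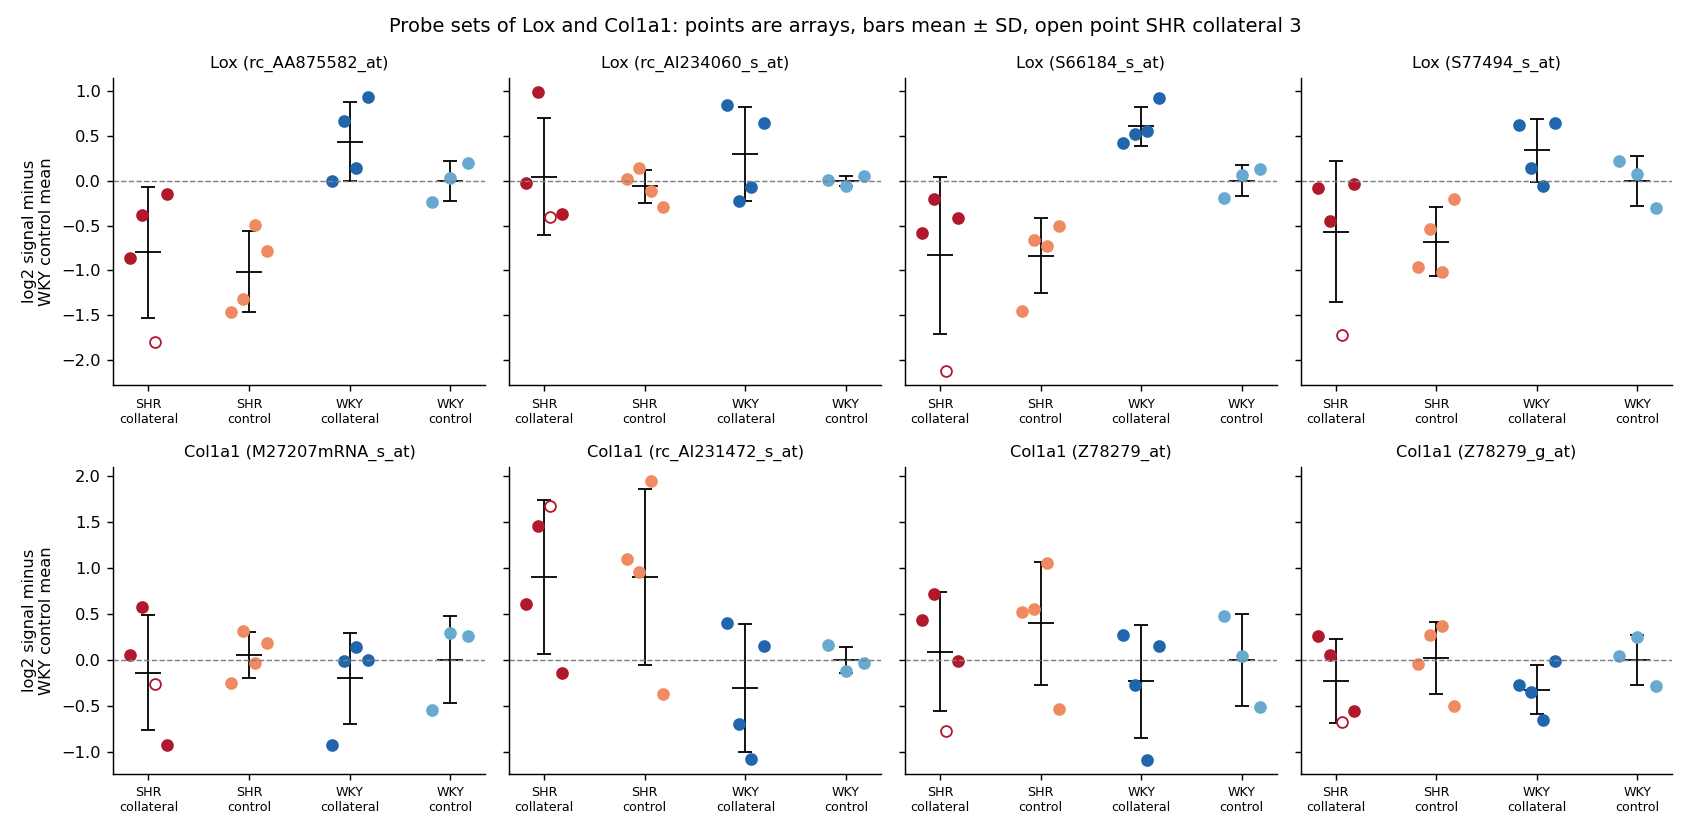
Points show the log2 signal of each array less the mean of WKY control arteries, for the 4 Lox probe sets (top) and the 4 Col1a1 probe sets (bottom), in SHR collateral, SHR control, WKY collateral and WKY control arteries; bars are mean ± SD and the open point is SHR collateral 3. Lox S66184_s_at has every SHR array below every WKY array, and rc_AI234060_s_at does not separate the strains.

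Whether occlusion changed Lox was also asked. In WKY arteries every collateral array of S66184_s_at lay above every control array, with a log2 difference of 0.61 ± 0.38, and in SHR arteries the groups overlapped with 0.01 ± 0.35. Without SHR collateral 3, whose signal of 9826 was far below the other SHR collateral arrays, the SHR value was 0.44 ± 0.24 and the mean over strains 0.52 ± 0.17 (adjusted p = 0.529). The difference between the strains in this collateral response was -0.60 ± 0.52 (95% interval -1.69 to 0.48), or -0.17 ± 0.33 without that array, so a strain difference in response was not shown.

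Fibromodulin, which binds collagen fibrils, had the lowest mean collateral difference of the 24 probe sets with all 15 arrays, on 1 of its 2 probe sets. Without SHR collateral 3 the dim Fn1 U82612cds_at was lower, at -1.16, against -1.15 for Fmod. Fmod X82152_at read 398, 509, 237 and 1042 in SHR collateral arteries, against 430, 1380, 1038 and 2231 in SHR control arteries. In WKY collateral arteries it read 1225, 1260, 943 and 759, against 2587, 3383 and 2431 in WKY control arteries. Every WKY collateral array lay below every WKY control array, whereas the SHR groups overlapped, with SHR control 1 at 430 and SHR collateral 4 at 1042. The log2 differences (collateral minus control) were -1.19 ± 0.46 in SHR and -1.43 ± 0.50 in WKY arteries. The mean of the strains was -1.31 ± 0.34 (95% interval -2.03 to -0.60; 2.49-fold), and it did not pass with an adjusted p of 0.652, or at -1.15 ± 0.31 without SHR collateral 3 (adjusted p = 0.419).

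The change in SHR less that in WKY was 0.24 ± 0.68 (95% interval -1.18 to 1.66), which neither shows a difference in response nor excludes a large one. The strains also stood apart on this probe set, with a mean SHR minus WKY difference of -1.24 ± 0.34 (adjusted p = 0.0997). That difference passed without SHR control 4, at -1.41 (adjusted p = 0.0396), without SHR collateral 4, at -1.43 (adjusted p = 0.0337), and with array weights, at -1.24 (adjusted p = 0.0229). It passed in only these 3 of its 24 alternatives, and in the others the adjusted p reached 0.810. Mean log2 signals were 8.886 ± 0.887 in SHR collateral, 10.080 ± 0.998 in SHR control, 10.002 ± 0.345 in WKY collateral and 11.436 ± 0.253 in WKY control arteries (SD, n = 4, 4, 4 and 3). SHR control and WKY collateral arteries, adjacent in that order, did not differ beyond their spread. The second Fmod probe set, rc_AI111481_s_at, showed neither difference: it was at -0.04 ± 0.38 for collateral minus control and 0.13 ± 0.38 for SHR minus WKY, with signals between 180 and 1338 over all arrays.

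Decorin, which binds collagen fibrils and growth factors such as TGF-beta, lay below its control level on all 4 probe sets in both strains, and no probe set passed. Dcn X59859_i_at read 71420, 57965, 80240 and 43922 in SHR collateral arteries, against 73156, 115661, 119634 and 78388 in SHR control arteries. In WKY collateral arteries it read 54140, 43366, 61058 and 55031, against 66905, 69178 and 108082 in WKY control arteries. The WKY groups did not overlap, while in SHR only SHR collateral 3, at 80240, exceeded the lowest control arrays. The mean difference was -0.60 ± 0.21 (adjusted p = 0.807), or -0.66 ± 0.19 without SHR collateral 3 (adjusted p = 0.419), when both strains were free of overlap. Of the 24 probe sets it was the only 1 lower in both strains with no overlap on those 14 arrays, against 0.307% of all, and with all 15 arrays there were 0, against 0.138%. The other 3 Dcn probe sets had mean differences of -0.63 ± 0.36, -0.46 ± 0.32 and -0.44 ± 0.25. These were nearer 0 without SHR collateral 3, at -0.35 ± 0.27, -0.30 ± 0.30 and -0.34 ± 0.24. These 4 share a target and are not separate evidence. Between strains the mean differences of Dcn were 0.02 to 0.37 and none passed.

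Lumican and biglycan, the remaining small leucine-rich proteoglycans, had mean collateral differences nearer 0 than that of Dcn X59859_i_at, and none passed. Lum read 10293, 4012, 2711 and 11128 in SHR collateral arteries, against 9479, 12907, 8963 and 6295 in SHR control arteries. In WKY arteries it read 11742, 2994, 2341 and 7358 in collaterals, against 9678, 6293 and 4950 in controls. Groups overlapped in both strains, and the mean difference was -0.53 ± 0.36, or -0.34 ± 0.34 without SHR collateral 3. Bgn U17834_at ranged from 13406 to 24213 in SHR collateral, 12720 to 23891 in SHR control, 14948 to 20190 in WKY collateral and 18150 to 22934 in WKY control arteries, with a mean difference of -0.18 ± 0.18. On the second Bgn probe set, rc_AA859830_s_at, mean log2 signals were 11.15 in SHR collateral and in SHR control arteries. They were 10.71 in WKY collateral and 10.82 in WKY control arteries.

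**Figure D2:**
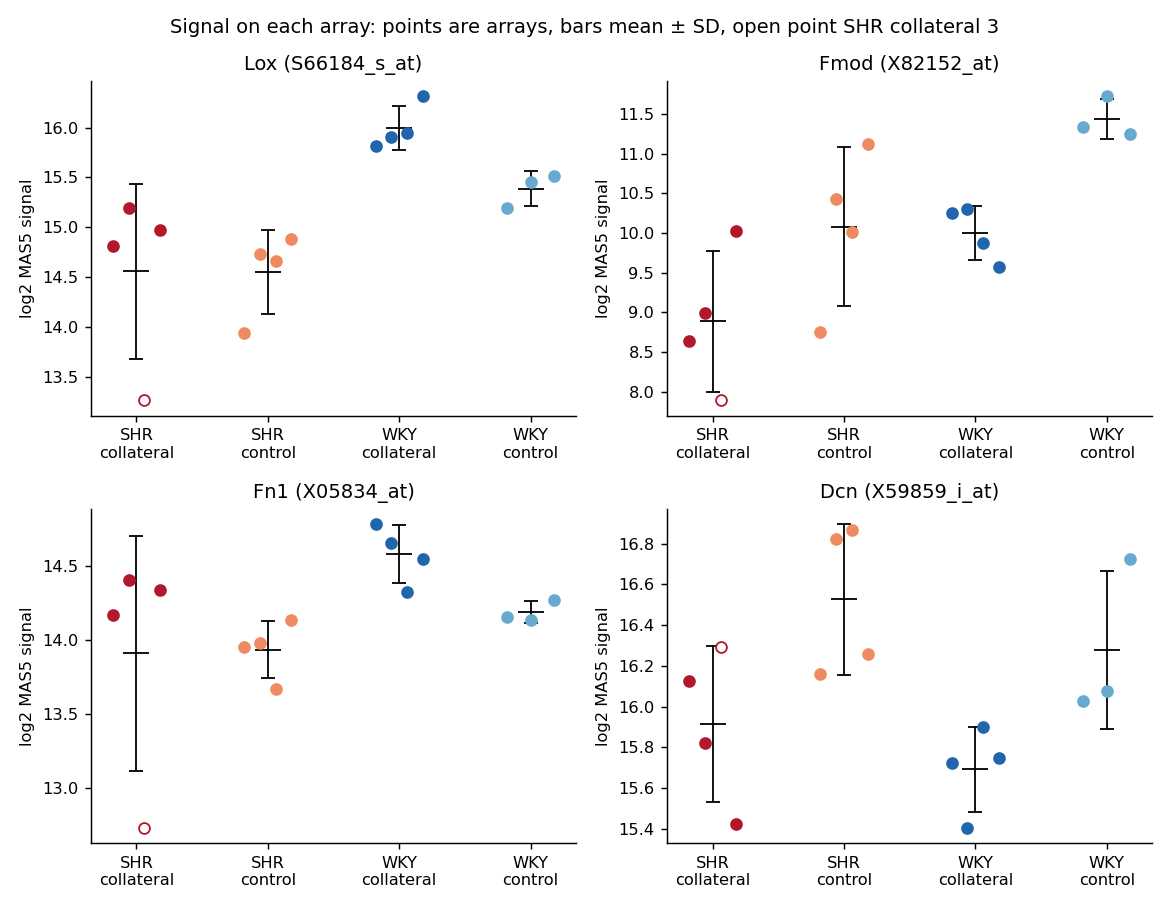
Points show log2 MAS5 signal of each array for Lox (S66184_s_at), Fmod (X82152_at), Fn1 (X05834_at) and Dcn (X59859_i_at) in SHR collateral, SHR control, WKY collateral and WKY control arteries; bars are mean ± SD and the open point is SHR collateral 3. Fmod and Dcn are lower in WKY collateral than in WKY control arteries without overlap, and SHR collateral 3 is the lowest SHR collateral array for Lox, Fmod and Fn1.

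The collagen chains and elastin, which make up the bulk of the wall's fibres, had no difference between groups that passed. With 1 probe set per gene (the one with the highest mean signal), Col1a1, Col1a2, Col3a1, Eln and Bgn had mean collateral differences between -0.39 and -0.18, and the 5 intervals ran between -0.85 and 0.35. On the 14 arrays without SHR collateral 3 the differences lay between -0.31 and -0.12. Their mean strain differences lay between -0.10 and 0.06, with intervals between -0.61 and 0.61. These are the bounds these arrays set on the log2 scale for these 5 probe sets, and other probe sets of the same genes differ, as given below. Col1a2 read 75084, 60769, 33039 and 44799 in SHR collateral, 56480, 77473, 68224 and 62042 in SHR control, 58940, 57338, 50018 and 71780 in WKY collateral, and 54353, 83398 and 53467 in WKY control arteries. All 4 groups overlapped.

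Col3a1 X70369_s_at read 86434, 83277, 51381 and 70835 in SHR collateral arteries, against 76084, 128860, 104330 and 61167 in SHR control arteries. In WKY collateral arteries it read 78143, 72820, 51544 and 87398, against 115112, 94116 and 87488 in WKY control arteries, so that the WKY groups just did not overlap. The mean difference was -0.39 ± 0.22. The second Col3a1 probe set, M21354_s_at, was 0.76 higher in SHR than in WKY collateral arteries, with overlap, and did not pass. Without SHR collateral 3 that difference was 1.08, the highest of the 24 probe sets in that comparison, and it did not pass either. On X70369_s_at the mean log2 signals of SHR and WKY collateral arteries were 16.13 and 16.12 with all arrays. Eln ranged from 27146 to 58182 in SHR collateral and 27402 to 84890 in SHR control arteries, and from 36476 to 37838 in WKY collateral against 43660 to 49002 in WKY control arteries. The WKY groups of Eln did not overlap either, and its mean difference was -0.31 ± 0.24.

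Col1a1 gave a different picture by probe set. On rc_AI231472_s_at the signals were 27515, 49713, 57752 and 16344 in SHR collateral, 38571, 35001, 69570 and 13962 in SHR control, 23876, 11148, 8536 and 20021 in WKY collateral, and 20164, 16618 and 17595 in WKY control arteries. SHR collateral 4 lay within the range of the WKY collateral arrays and SHR control 4 below all WKY control arrays, while the other SHR arrays lay above all WKY arrays of their vessel type. The mean strain difference was 1.06 ± 0.34 (adjusted p = 0.182), or 0.93 ± 0.33 without SHR collateral 3. It passed only without SHR control 4, at 1.27 (adjusted p = 0.0478). The other 3 Col1a1 probe sets were at 0.06, 0.06 and 0.36 for the same comparison. Within groups, the 6 pairs of Col1a1 probe sets correlated between -0.21 and 0.89 over 14 arrays, with SHR collateral 3 left out. Pairs among rc_AI231472_s_at, Z78279_at and Z78279_g_at were at 0.76 to 0.89, and pairs with M27207mRNA_s_at at -0.21 to 0.23. M27207mRNA_s_at, which had the highest mean signal, stands for Col1a1 wherever 1 probe set per gene is used.

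Fibronectin was measured by 3 usable probe sets that disagreed. Fn1 X05834_at read 18445, 21715, 6793 and 20744 in SHR collateral arteries, against 15861, 16181, 13046 and 17999 in SHR control arteries. In WKY collateral arteries it read 28235, 25865, 20511 and 23960, against 18294, 18040 and 19802 in WKY control arteries. The WKY groups did not overlap, and leaving out SHR collateral 3 also left the SHR groups free of overlap. The mean difference was 0.18 ± 0.23 with all arrays and 0.38 ± 0.13 without SHR collateral 3 (adjusted p = 0.531). It was the only 1 of the 24 that was higher in both strains with no overlap on those 14 arrays, against 0.154% of all, and with all 15 arrays there were 0, against 0.0461%. The dimmer U82612cds_at, at 75 to 625, lay on the other side of 0 at -0.99 ± 0.41, or -1.16 ± 0.40 without SHR collateral 3, and U82612cds_g_at was at 0.06 ± 0.43. The 2 probe sets that did not pass the filter are not interpreted.

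**Figure D3:**
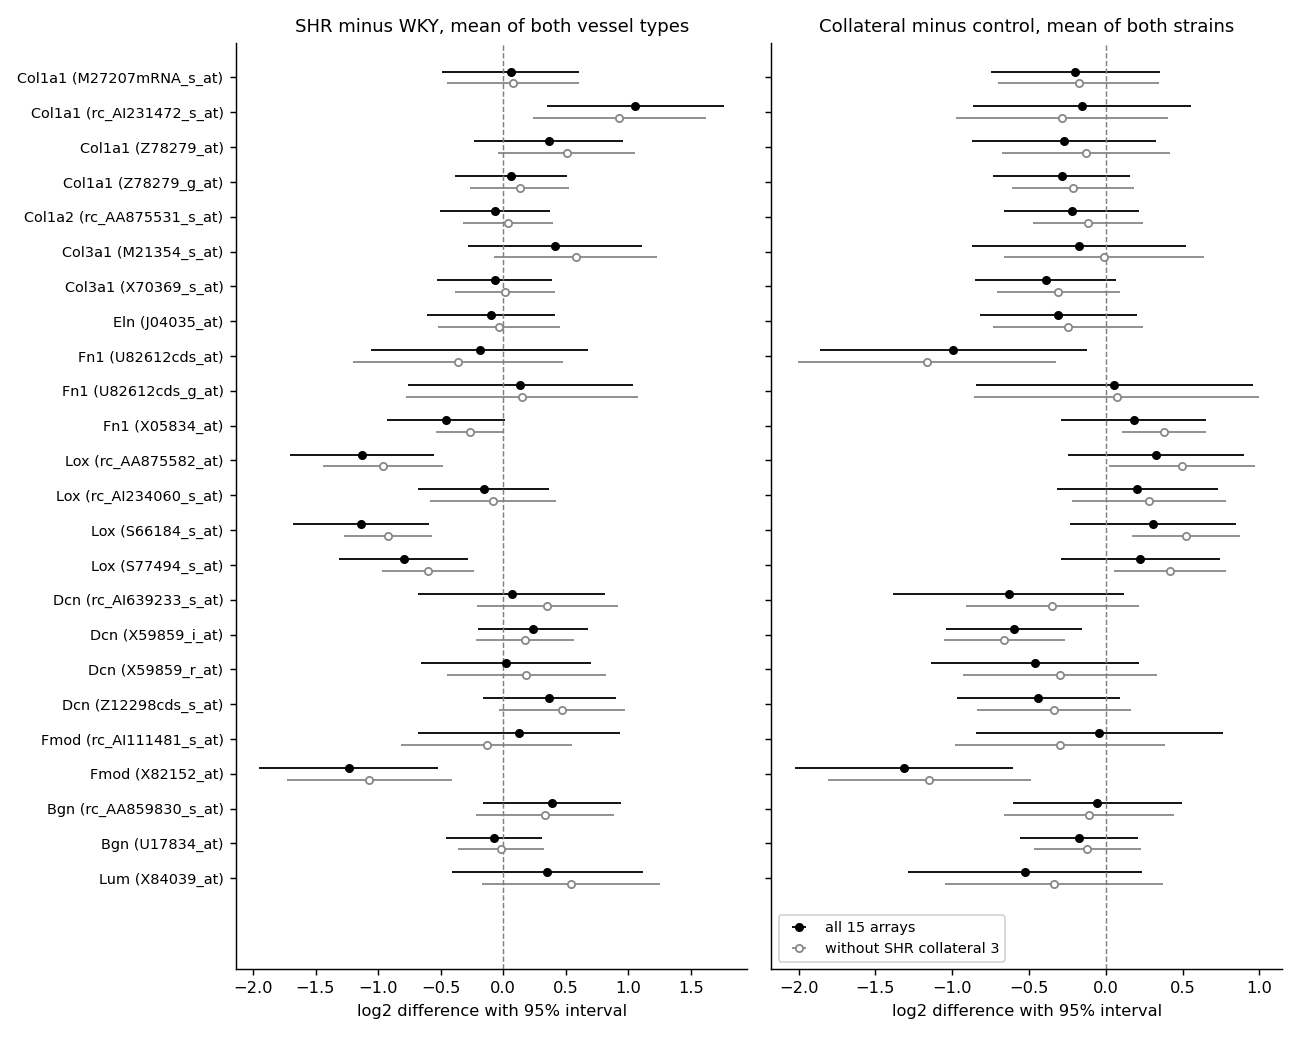
Log2 differences with 95% intervals for the 24 tested probe sets, SHR minus WKY averaged over vessel types (left) and collateral minus control averaged over strains (right), with all 15 arrays (filled) and without SHR collateral 3 (open). Of the 4 Lox probe sets 3 and of the 2 Fmod probe sets 1 lie below 0 in the left panel with intervals clear of 0, and with all 15 arrays Fmod X82152_at has the lowest value in the right panel.

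Over the whole set, no probe set passed in any collateral comparison, and none of the 6512 did in either strain, in their mean or in their difference. At an unadjusted p of 0.05 limma counted 245 of the 6512 in SHR, 206 in WKY, 333 in the mean and 124 in the difference. Of the 24 member probe sets, 3 were lower in collaterals at that level in the mean comparison (Fmod X82152_at, Dcn X59859_i_at and Fn1 U82612cds_at), against 2.58% of all, and 0 were higher, against 2.53%. Within SHR 2 were lower (Fmod X82152_at and Dcn X59859_i_at), against 1.69%, and within WKY 1 (Fmod X82152_at), against 1.41%. Without SHR collateral 3 the same level gave 4 higher in the mean comparison (3 probe sets of Lox and Fn1 X05834_at), against 3.44% of all, and 3 lower, against 3.32%. On those 14 arrays, whose smaller spread enters every comparison, WKY had 2 higher, against 2.78%, and 2 lower, against 2.15%. In WKY, 4 of the 24 were lower with no overlap (Col3a1, Eln, Dcn and Fmod), against 3.09% of all, and 2 were higher (Fn1 and Lox), against 3.61%. In SHR, 0 of the 24 had no overlap in either direction, against 0.906% higher and 0.814% lower of all. That count rested on SHR collateral 3: without it 1 was higher (Fn1 X05834_at), against 1.63%, and 2 were lower (Dcn X59859_i_at and Fn1 U82612cds_at), against 2.27%. Counting sides of 0, 18 of the 24 lay below 0 in SHR, in WKY and in the mean, against 45.2%, 49.7% and 45.6% of all tested probe sets. Several of the 24 target the same gene and are not separate evidence. With 1 probe set per gene, 9 of the 10 genes lay below 0 in SHR, 8 in WKY and 8 in the mean. The median member difference was -0.22 in SHR, -0.32 in WKY and -0.21 in the mean, against 0.06, 0.003 and 0.04 over all. The SHR median without SHR collateral 3 was -0.11, against -0.01 over all, with 17 of the 24 below 0, against 50.4%. The comparisons within 1 strain share no arrays with each other, whereas the mean shares arrays with both.

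For the strain comparison in control arteries, 2 of the 6512 probe sets passed (0.0307%, both lower), neither of them a member, and 3 of the 24 were lower at an unadjusted p of 0.05, against 2.75%, or 4 of the 24 without SHR collateral 3, against 4.16%. There 4 of the 24 were lower with no overlap (2 of Lox, 1 of Fmod and 1 of Fn1), against 3.72%. In collateral arteries 5 of the 24 were lower at that level, against 3.61%, and 1 higher, against 4.01%. The 5 became 3, all Lox, without SHR collateral 3, against 2.58%. There 2 were lower with no overlap, both of Lox, against 1.55%. Averaged over vessel types 4 were lower, against 5.13%, of which 3 were Lox and 1 Fmod, and 1 was higher, against 6.73%. The 24 lay on both sides of 0, with 11 below and 13 above, where 43.1% of all tested probe sets lay below 0.

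Markers of cell types were also compared, and none passed in the collateral comparison. In SHR minus WKY over both vessel types, 10 of 11 smooth muscle markers lay below 0 with a median log2 difference of -0.43, and 8 of 11 with -0.21 without SHR collateral 3. Summed smooth muscle signal was 105729 to 548619 in SHR collateral, 214042 to 449711 in SHR control, 321992 to 515036 in WKY collateral and 296333 to 430760 in WKY control arteries, the lowest value being SHR collateral 3. All 8 monocyte and macrophage markers tested lay above 0 with a median of 1.06, and 6 of 7 fibroblast markers did with a median of 0.56. Of all tested probe sets 56.9% lay above 0, and 2 macrophage markers were called. Without SHR collateral 3 the counts were 7 of 8 macrophage markers with 0.80 and 6 of 7 fibroblast markers with 0.48. Summed macrophage signal was 18980 to 34993 in SHR collateral, 7758 to 47950 in SHR control, 6168 to 20730 in WKY collateral and 4660 to 7040 in WKY control arteries. Of 10 endothelial markers 6 lay below 0, with a median of -0.66, and 1 was called. Without SHR collateral 3, 7 lay below 0 with a median of -0.76. Summed endothelial signal was 3885 to 7900 in SHR collateral against 9581 to 16979 in WKY collateral arteries. It was 4112 to 4866 in SHR control against 6109 to 10071 in WKY control arteries, so the strains did not overlap. Adipocyte markers lay above 0 in 5 of 8, with a median of 0.56, and in 6 of 8 with 0.42 without SHR collateral 3. The part of these markers in the Lox difference was not tested. In collateral minus control over both strains, 7 of 8 adipocyte markers lay below 0 with a median of -0.57, and fibroblast markers had a median of -0.18, with 4 of 7 below 0. Without SHR collateral 3 all 8 adipocyte markers lay below 0 with -0.58, and 5 of 7 fibroblast markers with -0.27. With all 15 arrays, 7 of 10 endothelial and 6 of 8 macrophage markers lay above 0, each list with a median of 0.33. Of 11 smooth muscle markers 7 lay below 0, with a median of -0.11. Leaving out SHR collateral 3, the endothelial, macrophage and smooth muscle medians were 0.28, 0.23 and 0.14. Summed adipocyte signal was 10110 to 49204 in SHR collateral, 8683 to 81783 in SHR control, 5936 to 19165 in WKY collateral and 10859 to 39512 in WKY control arteries, with Plin1 under the 20th percentile of signal on every array of 3 of the 4 groups. The part of these markers in the Fmod and Dcn values was not tested.

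Genes of related function from lists chosen with earlier results of these data known were checked beside the members. In the mean strain comparison 1 of 13 other matrix proteoglycans was called, the heparan sulfate proteoglycan syndecan-4 (Sdc4) at -0.996 ± 0.209 (adjusted p = 0.0264), and 1 of 10 matricellular glycoproteins, thrombospondin-4 (Thbs4), at 1.82 ± 0.41 (adjusted p = 0.0382). None of the other 5 matrix lists had a called gene in that comparison, with 5 fibrillar and interstitial collagens, 7 basement membrane genes, 5 elastic fibre partners, 9 collagen processing genes and 9 matrix receptors tested. Among them Plod3, a lysyl hydroxylase of collagen, was at 0.48 ± 0.16, the laminin chain Lamb2 at -0.94 ± 0.27 and the fibulin Efemp1 at 1.98 ± 0.59. In the mean collateral comparison no list gene passed: the matrix Gla protein Mgp, an inhibitor of calcification, was at -0.67 ± 0.22, versican (Vcan) at 0.84 ± 0.30 and Lamb2 at -0.80 ± 0.27.

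Within groups, the members shifted together only loosely from array to array. Over the 14 arrays without SHR collateral 3, with 1 probe set per gene, the 45 pairs had a median correlation of deviations from group means of 0.24, and 29 of them (64.4%) lay above 0, against a median of 0.01 and 51.4% above 0 over all pairs of 3822 genes. The highest pair was Eln with Bgn at 0.76 and the lowest Col1a1 with Lum at -0.70. That lowest value held for Col1a1 M27207mRNA_s_at only. With Lum, rc_AI231472_s_at was at 0.33, Z78279_at at 0.53 and Z78279_g_at at 0.34, so the sign depended on the probe set. Arrays share their depth and their mix of cells, so these are descriptions. Genes outside the set were compared with the mean of the 10 over the 14 arrays, with group differences left in. The most alike were Nrgn and Vipr2 (Pearson 0.81 each), Asb1 (0.80), Mgp (0.79), Syt17 (0.77), Opcml (0.76), Atp2a3 (0.73) and Timp2 (0.72), of 3812 genes compared. Within groups the same genes were at 0.70 to 0.85. They were picked as the highest of many over few arrays, so their high values follow in part from that choice.

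**Figure D4:**
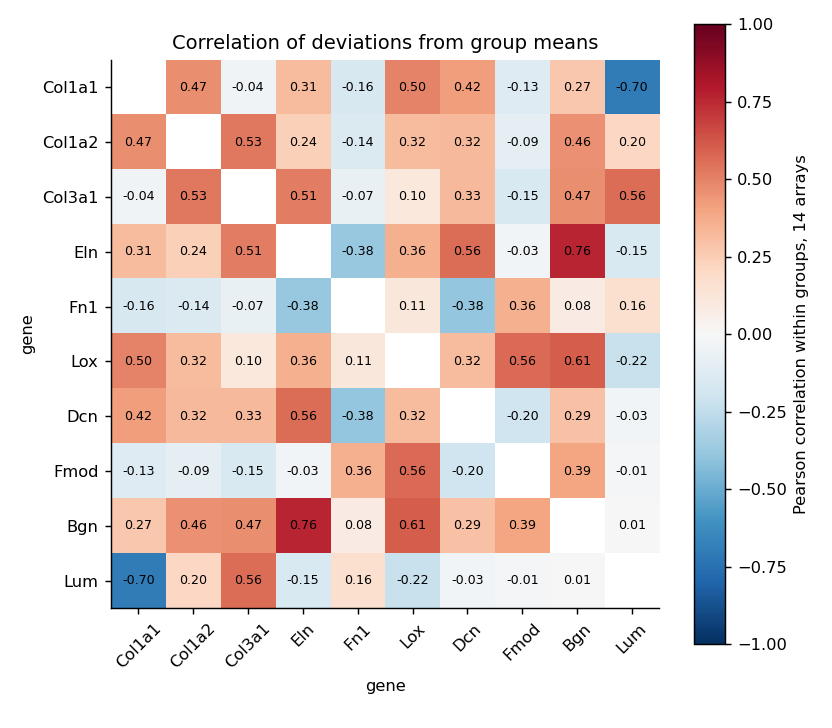
Pearson correlation of deviations from group means over 14 arrays between the 10 genes, 1 probe set each (colour and number, -1 to 1). Eln and Bgn have the highest value, 0.76, and Col1a1 (M27207mRNA_s_at) and Lum the lowest, -0.70. The other Col1a1 probe sets, not shown, correlated positively with Lum.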

How the data were processed

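Gene expression was measured on 15 rat arrays of mesenteric arteries. The authors deposited a signal value for each probe set on each array, computed by the MAS5 method in GCOS, as the submitters' processing notes name them (versions not given in the sources used here). Over all probe sets the mean after trimming 2% was 1001.1 to 1001.7 on every array, so the arrays had been scaled to a common mean. Total RNA was purified with a kit for fibrous tissue, per the labels' protocols. Groups came from the labels.

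Before log2, 12 signals under 1 were raised to 1. Array controls (59 probe sets) were dropped, and testing required a signal at the 40th percentile of the array or above on 3 arrays or more. limma 3.58.1 (R 4.3.3) fitted 1 mean per group to all 15 arrays with a variance trend, on 11 residual and 7.19 prior degrees of freedom. Its p-values were adjusted by Benjamini-Hochberg over 6512 probe sets at a threshold of 0.05. Alternatives were quantile normalization, equal array medians, other filters, a constant added before log2, array weights, no trend, only the arrays compared, a replicate block and each array left out. The 3' to 5' ratio covariate was added after seeing the data. For arrays, their number limits the precision.

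The members and lists were chosen with earlier results of these data known. Named genes outside the 10 followed a rule: up to 4 per matrix list with the smallest p in any comparison (only some are given), and the 8 most correlated with the members' mean. Positions are those of RefSeq GRCr8, used for the start-site windows only.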

Additional observations from a re-analysis of the deposited data

Results flagged for a closer look

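In 78 groups of 4 arrays tested for a value far from the rest, 3 were found, and chance gives about 1 in 20. Col1a1 M27207mRNA_s_at was low on WKY collateral 1, at 70964, with the nearest other array of its group at 133894. Col3a1 M21354_s_at was low on SHR control 4, at 2847, with the nearest at 7590. Fn1 X05834_at was low on SHR collateral 3, at 6793, with the nearest at 18445, and that array also stood apart over all probe sets. No difference in collateral response between the strains passed for any member.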

How the results depend on the processing

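Of 852 alternative values of 34 member results, 824 kept their direction and side of the threshold, 15 lost a call, 9 gained one and 4 changed sign. Only 1 of the 34 was called at first, Lox S66184_s_at in the mean strain comparison. All 15 lost calls were its own, and it kept its call in 9 of 24 alternatives. The other results were not called to begin with, so keeping their side of the threshold shows little about firmness. The Fmod X82152_at difference in response turned to -0.15 with quantile normalization and ranged from -0.20 to 0.59 with 1 array left out. Col3a1 M21354_s_at, SHR minus WKY in collaterals, was 0.76 and turned to -0.16 with the 3' to 5' covariate. The Lox S66184_s_at strain call was lost with equal array medians (adjusted p = 0.162), no variance trend (0.107), a random replicate block (0.0556) and the covariate (0.698), and it ranged from -1.24 to -0.92 with 1 array left out. Equal array medians moved the median of all probe sets by -0.14 in the mean strain comparison; relative to that median, Lox was at -1.21 in both.

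The number of probe sets called in the mean strain comparison, 58, was 31 with equal medians (10 higher and 21 lower, against 25 and 33), 34 with no trend, 184 with array weights, 3 with the covariate, and 30 to 101 with 1 array left out (30 without SHR control 3 and 101 without SHR control 4). In collateral arteries, 0 became 26 with array weights, 2 with only the arrays compared and 0 to 7 with 1 array left out. In control arteries, 2 became 0 with no filter or a 60th percentile filter, 1 with no trend, 14 with array weights, 7 with only the arrays compared, 0 with the covariate and 0 to 6 with 1 array left out. The causes were not tested.

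Whether replicate numbers pair the arrays cannot be told from these data. Same-numbered arrays had correlations of deviations from -0.070 to 0.306, against -0.269 to 0.113 for differently numbered arrays of a strain. In WKY the same-numbered values were 0.306, 0.016 and 0.168. With a fixed replicate block, which can be estimated for the collateral comparisons only, Fmod X82152_at was at -1.24 (adjusted p = 0.519) in the mean and Dcn X59859_i_at at -0.61.

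Groups of 3 or 4 arrays and 1 array that stands apart limit these comparisons, dim probe sets most. Probe sets of the same gene disagreed for Lox, Fmod, Fn1 and Col1a1, and for Col3a1 between the strains in collateral arteries. Which of them measures the gene best cannot be told from these files.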
